A study of Arabidopsis thaliana with 12 samples.

Results

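A set of 10 genes of the maturing seed was followed in Arabidopsis thaliana seedlings: 2 genes of late embryogenesis abundant (LEA) proteins, 6 genes of storage proteins and 2 genes of oil body proteins. They were listed by locus, with earlier results of these data known. All 10 were found among the 33602 loci of the count files. The LEA genes were EM1 (AT3G51810) and EM6 (AT2G40170). The storage protein genes were PAP85 (AT3G22640), CRA1 (AT5G44120), CRU2 (AT1G03880), CRU3 (AT4G28520), SESA1 (AT4G27140) and SESA3 (AT4G27160), and the oleosin genes were OLEO1 (AT4G25140) and OLEO2 (AT5G40420).

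These genes are known from seed maturation, when the embryo fills with storage protein and oil and then dries. The transcription factors LEC1, LEC2, FUS3 and ABI3, with bZIP factors that respond to abscisic acid, switch them on through the RY element (CATGCA) and the ABA-responsive element (core ACGTG) of their promoters. After germination the stores are used up and the genes are kept silent, in part by the VAL repressors and by Polycomb group proteins.

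The study compared 4 genotypes with 3 libraries each, all in the ecotype Col-0: the wild type, the lines DPB2oe12.1.5 and DPB2oe1.11.5, and abo4-1, a mutant. DPB2 encodes an accessory subunit of DNA polymerase epsilon, which copies the leading strand in DNA replication, and both lines are labelled as its overexpressors. The promoter of the transgene is not named in the labels, and neither is whether a line descends from 1 plant. The mutation in abo4-1 lies in POL2A, the catalytic subunit of the polymerase, and the series design calls it a knock out. Library titles write DPB2oe1.11.5 as 1.11.2, while its source and genotype labels, followed here, write 1.11.5. Seedlings of all groups were untreated, grown on 0.5x MS with 16 h of light, 65% humidity and 20 °C, and taken at Boyes stage 1.02. Ages in days, hours of harvest and separate growth of the replicates are not given, so p values measure the spread between these libraries, which may be technical. The series title names a deficiency of this polymerase as its subject.

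Libraries held 10902547 to 29456111 counted reads, and Pearson correlations of log2 values within groups were 0.953 to 0.985. DPB2 was at 2.90 ± 1.19 CPM for Col-0 (SD, n = 3; CPM, counts per 1000000 reads after TMM scaling), 113 ± 6.53 for DPB2oe1.11.5, 115 ± 4.16 for DPB2oe12.1.5 and 4.04 ± 0.551 for abo4-1. POL2A was at 25.3 ± 1.15 CPM in abo4-1 against 16.4 ± 0.835 in Col-0, and its log2 difference of 0.62 ± 0.17 (SE) was not called (adjusted p = 0.177, edgeR's quasi-likelihood test). In DPB2oe1.11.5 it was at 29.5 ± 4.64 CPM and called higher than Col-0 (log2 0.84 ± 0.17, adjusted p = 0.0453, edgeR), and in DPB2oe12.1.5 it was at 21.0 ± 5.05 and not called (0.35 ± 0.17, adjusted p = 0.326). Its difference between the lines was not called (-0.49 ± 0.17, adjusted p = 0.175). Leaf marker genes summed to 95900 to 101300 CPM for Col-0, 55530 to 71570 for DPB2oe1.11.5, 63130 to 91710 for DPB2oe12.1.5 and 75440 to 102500 for abo4-1. Both overexpressing lines lie below Col-0 on this sum. Of the 6 leaf genes 1, RCA, had a log2 difference above 0 in each line. Its DPB2oe12.1.5 libraries (12040 to 14230 CPM) lay above those of Col-0 (7579 to 10450), as did 11.4% of all genes. The part of the leaf markers in the seed gene results was not tested. Markers of seed coat, fruit and endosperm summed to 1.44 to 2.87 CPM, with 1.66 to 2.87 in Col-0 and 2.42 to 2.72 in DPB2oe12.1.5, and 9 of these 10 genes failed the count filter.

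The promoters of 5 of these genes are printed to show the known seed elements in the genes that carry most of the results. EM6 and PAP85 are the members called in a comparison, CRU3 and OLEO1 represent the globulins and oil body genes, and SESA3 held its counts almost wholly in a pair of libraries. Each line gives the 250 bases before the annotated RefSeq start in TAIR10.1, 5′ to 3′ on the gene's strand. Capitals mark RY elements (CATGCA) and ABRE cores (ACGTG) on either strand, and the G-box (CACGTG) holds an ABRE core on both strands.
EM6, chr2:16780369-16780618, minus strand: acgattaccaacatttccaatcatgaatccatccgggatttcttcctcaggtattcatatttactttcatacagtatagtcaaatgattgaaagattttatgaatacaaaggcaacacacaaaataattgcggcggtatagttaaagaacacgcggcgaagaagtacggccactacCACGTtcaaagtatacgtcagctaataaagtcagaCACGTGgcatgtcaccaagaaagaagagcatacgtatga
PAP85, chr3:8013942-8014191, minus strand: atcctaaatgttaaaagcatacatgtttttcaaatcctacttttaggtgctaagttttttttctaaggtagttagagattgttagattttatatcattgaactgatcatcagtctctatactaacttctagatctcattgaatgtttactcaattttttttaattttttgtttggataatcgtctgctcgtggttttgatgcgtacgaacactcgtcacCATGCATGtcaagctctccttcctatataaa
CRU3, chr4:14087306-14087555, plus strand: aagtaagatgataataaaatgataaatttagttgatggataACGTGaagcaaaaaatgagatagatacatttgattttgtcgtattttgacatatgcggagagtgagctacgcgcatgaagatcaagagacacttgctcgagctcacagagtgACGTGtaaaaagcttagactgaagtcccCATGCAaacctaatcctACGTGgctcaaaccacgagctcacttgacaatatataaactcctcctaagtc
SESA3, chr4:13611546-13611795, plus strand: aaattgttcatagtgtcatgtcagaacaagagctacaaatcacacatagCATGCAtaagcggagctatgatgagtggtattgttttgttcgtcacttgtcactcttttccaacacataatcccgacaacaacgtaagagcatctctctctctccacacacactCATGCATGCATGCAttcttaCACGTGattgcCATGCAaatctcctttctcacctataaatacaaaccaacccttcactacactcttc
OLEO1, chr4:12900180-12900429, plus strand: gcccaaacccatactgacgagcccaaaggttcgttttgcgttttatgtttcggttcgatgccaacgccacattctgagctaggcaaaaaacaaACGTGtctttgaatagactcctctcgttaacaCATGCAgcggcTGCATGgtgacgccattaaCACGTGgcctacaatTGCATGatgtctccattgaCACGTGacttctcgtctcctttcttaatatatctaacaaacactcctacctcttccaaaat

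Over windows of 300 bases (250 before to 50 after the start, both strands), an RY element stood in 7 of the 10 promoters, against 9.72% of 27438 promoters of the annotation. It was not found in the windows of EM1, EM6 and CRU2. An ABRE core stood in 6 of 10, against 26.7% of all promoters, and both elements together in 4 of 10 (CRU3, SESA1, SESA3 and OLEO1), against 2.91%. The G-box stood in 4 of 10, those of EM6, SESA1, SESA3 and OLEO1, against 7.68%. These are matches of letters, not measured sites. No stretch of 50 bases within an exon of any member recurs exactly elsewhere in the genome, so an exact read of such a stretch has 1 place to map. Near matches and stretches across exon junctions were not checked.

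In wild-type seedlings the seed genes were barely detected. Together the 10 genes had 58, 23 and 41 counts in the Col-0 libraries, or 2.10, 2.25 and 2.18 CPM, which differ by less than their counting intervals (1.43 to 3.37 CPM at the widest, 95% exact Poisson, counting error only). Per length (RPKM, from the CPM and the transcript lengths in the files), EM6 had the highest Col-0 mean at 0.830 and OLEO2 the next at 0.530, while the other 8 genes lay between 0.0421 and 0.1998. SESA1 and CRU2 had 2 and 4 counts in all 3 Col-0 libraries together.

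DPB2oe12.1.5 carried most of the seed gene counts, and a pair of its libraries carried nearly all of those. Its summed levels were 39.3, 37.5 and 5.07 CPM in replicates 1, 2 and 3, from 489, 553 and 65 counts. Replicates 1 and 2 hold 1042 of the 1643 member counts of the whole series (63.4%). Replicate 3 is far below them but above each Col-0 library, with a counting interval of 3.91 to 6.46 CPM. In DPB2oe1.11.5 the sums were 1.44, 8.90 and 1.61 CPM, so replicate 2 stands apart from replicates 1 and 3. In abo4-1 they were 5.998, 2.58 and 2.71 CPM. Values without these libraries are given beside the fitted differences they moved most. In whole seedlings, fewer cells expressing a gene and less RNA per cell cannot be told apart.

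**Figure D1:**
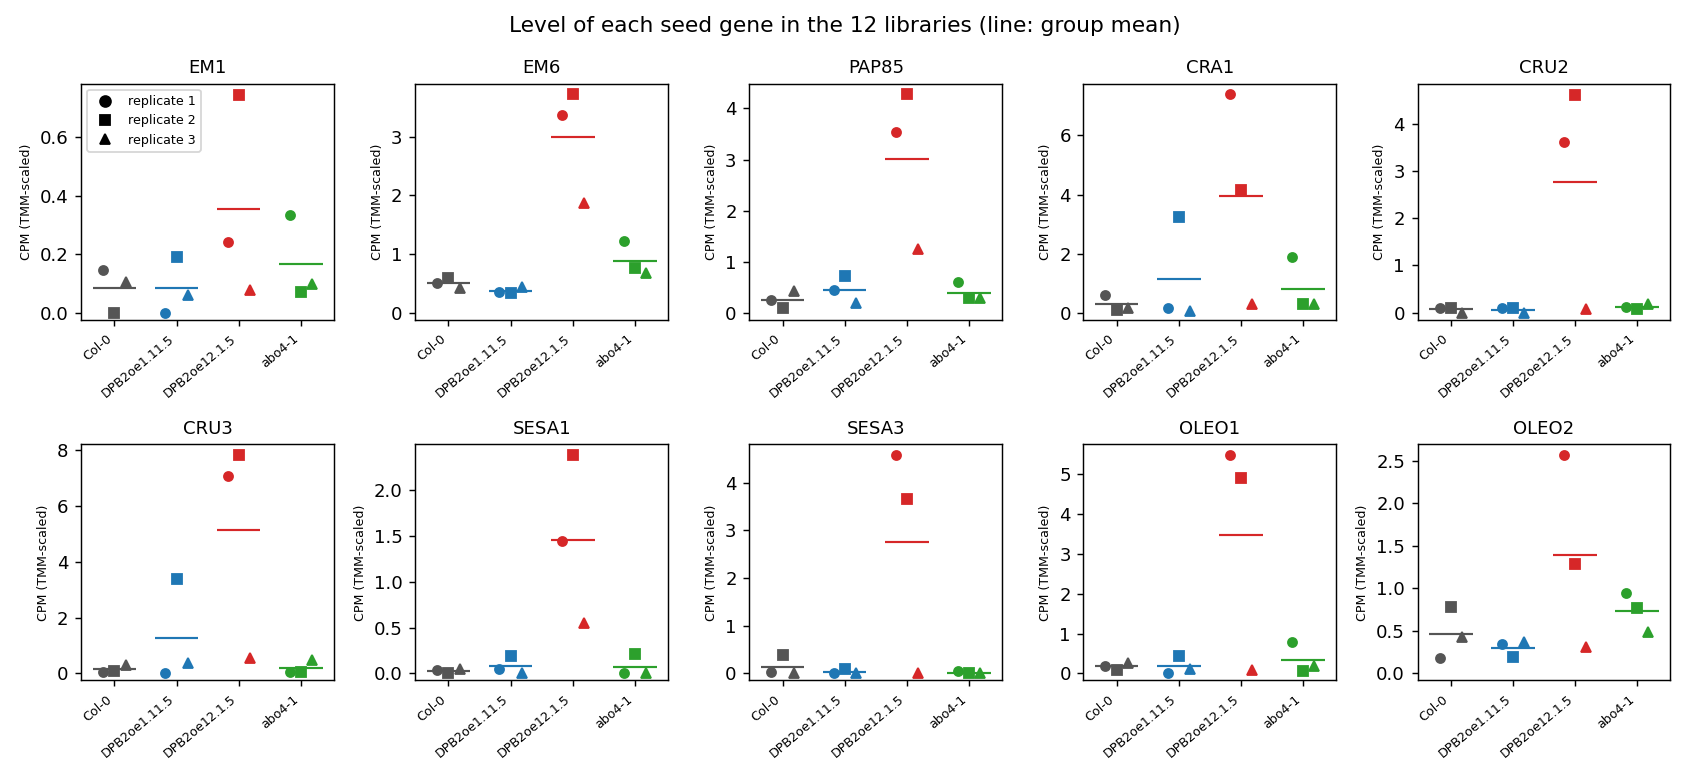
Level of each of the 10 seed genes (y axis, CPM after TMM scaling, a scale of its own per panel) in the 3 libraries of each genotype (x axis); symbols give the replicate and the line the group mean. DPB2oe12.1.5 replicates 1 and 2 stand above all other libraries for CRU2, SESA3 and OLEO1, while replicate 3 of that line is also raised above Col-0 for EM6 and PAP85.

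EM6, a LEA protein of the drying embryo, differed in every library of DPB2oe12.1.5. The gene lies on the minus strand of chromosome 2, from 16779552 to 16780368 in TAIR10.1, with 2 exons. Its levels were 0.507, 0.587 and 0.425 CPM for Col-0, 0.348, 0.335 and 0.432 for DPB2oe1.11.5, 3.37, 3.73 and 1.87 for DPB2oe12.1.5, and 1.22, 0.766 and 0.677 for abo4-1. All 3 libraries of DPB2oe12.1.5 lie above the other 9, and those of abo4-1 lie above those of Col-0. Against Col-0, EM6 rose in DPB2oe12.1.5 by 2.57 ± 0.38 on the log2 scale (SE, 3 of 3 libraries higher, adjusted p = 0.0128, edgeR's quasi-likelihood test with Benjamini-Hochberg adjustment over all genes tested). In abo4-1 its log2 difference of 0.86 ± 0.41 was not called (adjusted p = 0.638).

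EM1, the other gene of this LEA group, was near its detection limit, with 34 counts in 12 libraries. Its levels were 0.145, 0 and 0.106 CPM for Col-0, 0, 0.192 and 0.0618 for DPB2oe1.11.5, 0.241, 0.747 and 0.0779 for DPB2oe12.1.5, and 0.333, 0.0696 and 0.0968 for abo4-1. The 4 groups overlap. It failed the count filter. Its group sum of 15 counts in DPB2oe12.1.5 stood against 6 in Col-0, a depth-scaled ratio of 3.54 (1.30 to 11.1, counting error only), and with no filter it was not called (adjusted p = 0.475, edgeR).

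PAP85, a vicilin-like 7S storage globulin, also differed in every DPB2oe12.1.5 library. It lies on the minus strand of chromosome 3, from 8011724 to 8013941, with 5 exons. Its levels were 0.253, 0.0978 and 0.425 CPM for Col-0, 0.447, 0.718 and 0.185 for DPB2oe1.11.5, 3.53, 4.28 and 1.25 for DPB2oe12.1.5, and 0.611, 0.279 and 0.290 for abo4-1. The 3 libraries of DPB2oe12.1.5 lie above the other 9, which overlap among themselves. Against Col-0 it rose by 3.41 ± 0.60 on the log2 scale (3 of 3 libraries higher, adjusted p = 0.0291, edgeR).

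These 2 of the 10 seed genes were called in DPB2oe12.1.5 against Col-0, both higher, where 0.201% of the 19924 genes tested were called higher and 0.427% in either direction. Among the 10, 6 had passed the count filter (about 0.706 CPM in at least 3 libraries): EM6, PAP85, CRA1, CRU3, OLEO1 and OLEO2. That cutoff was reached in no Col-0 library by any member but OLEO2, so a gene that passed had to be high elsewhere, mostly in DPB2oe12.1.5. The calls end without single libraries. With 4 libraries of highest LHY left out (DPB2oe12.1.5 replicates 1 and 2, DPB2oe1.11.5 replicate 2 and abo4-1 replicate 2), EM6 was at 1.90 (adjusted p = 0.174) and PAP85 at 2.14 (adjusted p = 0.242, edgeR), with 1 library of the line, assumed to vary like the others. No member was called without Col-0 replicate 2, Col-0 replicate 3, or DPB2oe12.1.5 replicate 1 or 2, where EM6 was between 2.38 and 2.67 (adjusted p = 0.0522 to 0.0854, edgeR) and PAP85 between 3.08 and 3.87 (adjusted p = 0.0851 to 0.144). EM6 alone was called without Col-0 replicate 1, and 6 members were called without DPB2oe12.1.5 replicate 3 (EM6, PAP85, CRU2, SESA1, SESA3 and OLEO1). With a library left out the smallest group held 2, so the filter asked for 2 libraries. CRU2, SESA1 and SESA3 had failed the main filter and entered through DPB2oe12.1.5 replicates 1 and 2, where they were high. The 6 calls are therefore not read as a stronger result.

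The cruciferins, the 12S globulins that make up much of the seed's protein, were all high in DPB2oe12.1.5 replicates 1 and 2, and differed among themselves in other libraries. CRA1 was at 0.615, 0.0978 and 0.159 CPM for Col-0, 0.149, 3.25 and 0.0618 for DPB2oe1.11.5, 7.39, 4.14 and 0.312 for DPB2oe12.1.5, and 1.89, 0.279 and 0.290 for abo4-1. It was high in DPB2oe12.1.5 replicates 1 and 2, DPB2oe1.11.5 replicate 2 and abo4-1 replicate 1, and the groups overlap. Its log2 difference between DPB2oe12.1.5 and Col-0 was 3.51 ± 1.45 (adjusted p = 0.270, edgeR), and it was -0.11 without the 4 libraries of highest LHY.

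CRU3 was at 0.0362, 0.0978 and 0.318 CPM for Col-0, 0, 3.40 and 0.371 for DPB2oe1.11.5, 7.07, 7.81 and 0.545 for DPB2oe12.1.5, and 0.0555, 0.0696 and 0.484 for abo4-1. The same pair of DPB2oe12.1.5 libraries and DPB2oe1.11.5 replicate 2 were high, and the lowest DPB2oe12.1.5 library lies above Col-0. Its log2 differences from Col-0, 5.08 ± 1.56 for that line and 3.08 ± 1.63 for DPB2oe1.11.5, were not called (adjusted p = 0.163 and 0.425, edgeR). Without DPB2oe1.11.5 replicate 2, which holds 71 of the 77 counts of its group, the second difference was 0.23.

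CRU2 differed from the other cruciferins in DPB2oe1.11.5 replicate 2, where it had 2 counts while CRA1 had 68 and CRU3 had 71. It was at 0.109, 0.0978 and 0 CPM for Col-0, 0.0994, 0.0957 and 0 for DPB2oe1.11.5, 3.61, 4.62 and 0.0779 for DPB2oe12.1.5, and 0.111, 0.0696 and 0.193 for abo4-1. It was high in DPB2oe12.1.5 replicates 1 and 2 alone, which hold 89.0% of its counts, and replicate 3 lies within the range of Col-0. It failed the count filter. Over the group sums, 114 counts stood against 4 in Col-0, a depth-scaled ratio of 40.4 (95% exact interval 15.4 to 151, counting error only), and 113 of the 114 came from replicates 1 and 2.

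SESA1 and SESA3 encode 2S albumins, small sulfur-rich storage proteins. SESA1 was at 0.0362, 0 and 0.0531 CPM for Col-0, 0.0497, 0.192 and 0 for DPB2oe1.11.5, 1.45, 2.38 and 0.545 for DPB2oe12.1.5, and 0, 0.209 and 0 for abo4-1. All 3 libraries of DPB2oe12.1.5 lie above the other 9. SESA1 failed the filter, and in a fit with no filter on low counts it was called in that line against Col-0 (log2 5.14, adjusted p = 0.0140, edgeR, 0.299% of 31750 genes called higher). Its 60 counts stood against 2 in Col-0, a ratio of 42.5 (11.3 to 359, counting error only).

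SESA3, on the same strand of chromosome 4 (13611796 to 13612563, after SESA1 at 13607329 to 13608031), behaved differently in replicate 3 of the same line. It was at 0.0362, 0.391 and 0 CPM for Col-0, 0, 0.0957 and 0 for DPB2oe1.11.5, 4.58, 3.67 and 0 for DPB2oe12.1.5, and 0.0555, 0 and 0 for abo4-1. DPB2oe12.1.5 replicates 1 and 2 hold 93.3% of its counts, with 57 and 54, while replicate 3 had none where SESA1 had 7. It failed the filter and was not called without it (adjusted p = 0.231 against Col-0, edgeR).

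The oleosins coat the surface of oil bodies and keep them from fusing. OLEO1 was at 0.181, 0.0978 and 0.265 CPM for Col-0, 0, 0.431 and 0.124 for DPB2oe1.11.5, 5.46, 4.89 and 0.0779 for DPB2oe12.1.5, and 0.777, 0.0696 and 0.193 for abo4-1. DPB2oe12.1.5 replicates 1 and 2 were high, replicate 3 had 1 count, and the groups overlap. Its log2 difference of 4.13 ± 1.19 from Col-0 was not called (adjusted p = 0.137, edgeR) and was -1.22 without the 4 libraries of highest LHY.

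OLEO2 had the smallest difference of the 6 tested genes in that line. It was at 0.181, 0.782 and 0.425 CPM for Col-0, 0.348, 0.192 and 0.371 for DPB2oe1.11.5, 2.57, 1.29 and 0.312 for DPB2oe12.1.5, and 0.944, 0.766 and 0.484 for abo4-1. The groups overlap, with DPB2oe12.1.5 replicates 1 and 2 highest. Its log2 difference of 1.74 ± 0.68 from Col-0 was not called (adjusted p = 0.233, edgeR), and it was -0.38 without the 4 libraries of highest LHY.

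**Figure D2:**
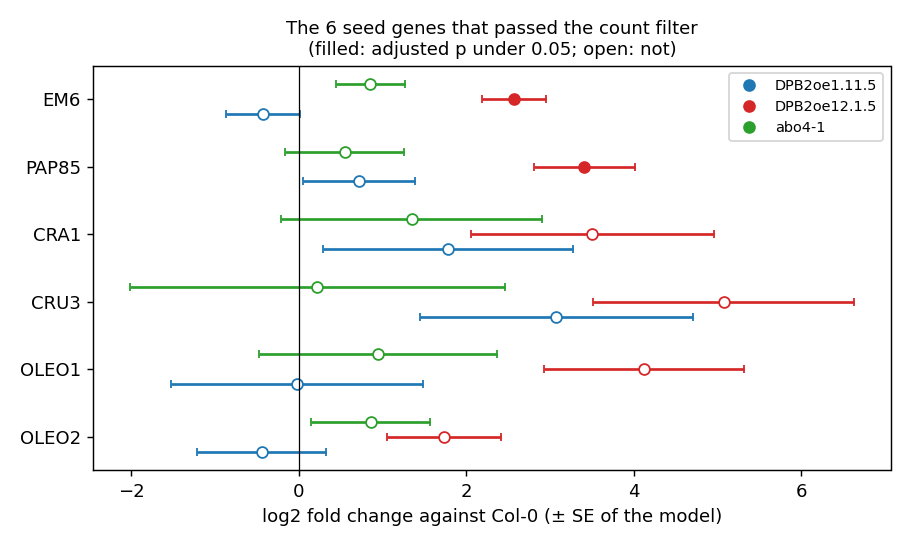
log2 fold change against Col-0 (x axis, ± SE of the edgeR model) of the 6 seed genes that passed the count filter, for each genotype; filled points had an adjusted p under 0.05. EM6 (2.57) and PAP85 (3.41) in DPB2oe12.1.5 are the filled points, and the SEs of the cruciferins and OLEO1 are 1.19 or more in every comparison with Col-0.

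The DPB2oe12.1.5 libraries of EM6, PAP85, CRU3 and SESA1, 4 of the 10 members, all lay above those of Col-0, as did 11.4% of all genes tested. SESA1 was itself not among the genes tested. CRU3 had 7 counts in DPB2oe12.1.5 replicate 3 against 6 in Col-0 replicate 3. Since the filter admitted members mostly through this line, no count among those that passed is read against that share. Per length, the means of the line ran from 4.91 RPKM for EM6 through 3.83 for OLEO1, 3.58 for SESA3, 2.87 for CRU3, 2.38 for CRA1, 2.07 for SESA1, 1.82 for PAP85, 1.70 for CRU2 and 1.60 for OLEO2 to 0.395 for EM1. Neighbours in this order do not differ beyond their spread, since the SD of each was between 33.0% and 98.2% of its mean.

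In DPB2oe1.11.5, which had as much DPB2 mRNA, 0 of the 6 tested seed genes were called against Col-0, by edgeR or by DESeq2, where 0.708% of all genes were. None had an unadjusted p under 0.05 (6.14% of all genes were higher and 8.79% lower at that p), and no member's libraries lay wholly above those of Col-0, against 11% of all genes. The log2 differences were -0.42 ± 0.44 for EM6, 0.72 ± 0.67 for PAP85, -0.01 ± 1.505 for OLEO1 and -0.44 ± 0.77 for OLEO2. CRU3 had the largest difference, 3.08, which was 0.23 without replicate 2. SEs of the size of that of OLEO1 leave room for changes that were not called. Without replicate 2 the log2 difference of CRA1 went from 1.78 ± 1.49 to -1.55. In abo4-1, 0 of the 6 were called against Col-0 by edgeR or DESeq2, where 0.783% of all genes were, and none had an unadjusted p under 0.05. The 6 log2 differences lay between 0.22 for CRU3 and 1.35 for CRA1, and EM6 alone had its 3 libraries above Col-0 (8.13% of all genes).

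The direct test between the overexpressing lines called EM6, higher in DPB2oe12.1.5 than in DPB2oe1.11.5 by 2.996 ± 0.39 on the log2 scale (3 of 3 libraries higher, adjusted p = 0.0114, edgeR). It was 1 of 6 genes called in this comparison, 0.0301% of those tested. PAP85 had a log2 difference of 2.69 ± 0.56 (adjusted p = 0.0818). With the 6 libraries of both lines alone, the difference of EM6 was 2.98 and was not called (adjusted p = 0.131), and without the 4 libraries of highest LHY it was 2.24 (adjusted p = 0.0691). Between DPB2oe12.1.5 and abo4-1, PAP85 was called at 2.86 ± 0.59 (3 of 3 libraries higher, adjusted p = 0.0448, edgeR), where 0.713% of all genes were. EM6 there was at 1.71 ± 0.36 (adjusted p = 0.0515, edgeR). PAP85 was not called with the 6 libraries alone (2.87, adjusted p = 0.115) or without the 4 libraries (1.38, adjusted p = 0.474). Between DPB2oe1.11.5 and abo4-1 none of the 6 was called by edgeR or DESeq2, against 1.64% of all genes, and 1 (EM6) had an unadjusted p under 0.05. In that comparison EM6, at -1.28 ± 0.42 (adjusted p = 0.140), and OLEO2, at -1.30 ± 0.72 (adjusted p = 0.398), were lower in all 3 libraries of DPB2oe1.11.5, as 11.8% of all genes were.

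The libraries with many seed gene counts also differed in make-up. Cruciferins held 46.0% (95% exact binomial interval 41.5 to 50.5) and 44.1% (39.9 to 48.4) of the member counts in DPB2oe12.1.5 replicates 1 and 2, and 2S albumins 15.3% (12.3 to 18.8) and 16.1% (13.1 to 19.4). The intervals of these libraries overlap in all 5 classes. In replicate 3 of the same line the LEA genes held 38.5% (26.6 to 51.4) and cruciferins 18.5% (9.92 to 30.03). In DPB2oe1.11.5 replicate 2, cruciferins held 75.8% (69.0 to 81.8) and 2S albumins 3.23% (1.19 to 6.89), outside the intervals of DPB2oe12.1.5 replicates 1 and 2. In abo4-1 replicate 1 the albumins held 0.926% (0.0234 to 5.05) and the oleosins 28.7% (20.4 to 38.2). The intervals cover counting error only, and the reads carry no molecular identifiers.

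**Figure D3:**
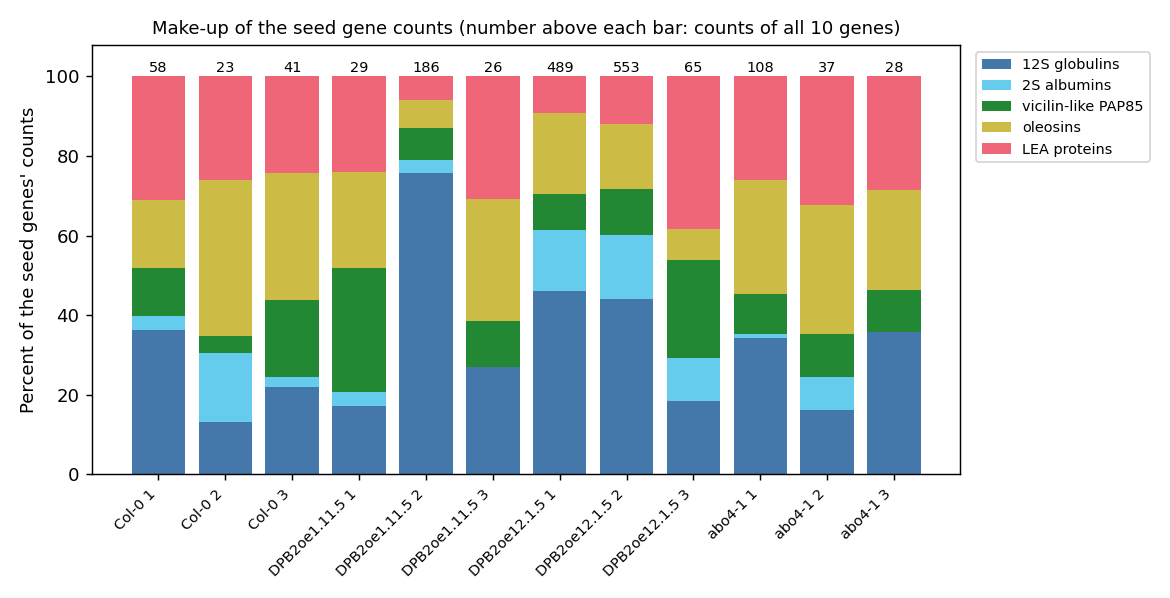
Share of each protein class in the counts of the 10 seed genes (y axis, percent) in each library (x axis), with the number of counts above each bar. The bars of DPB2oe12.1.5 replicates 1 and 2 (489 and 553 counts) have near-equal shares, and cruciferins take 75.8% in DPB2oe1.11.5 replicate 2; bars with few counts have wide intervals.

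Across the 12 libraries, the log2 CPM of the 6 tested members correlated with Pearson r of 0.43 (CRU3 with OLEO2) to 0.88 (CRA1 with OLEO1), with a median of 0.75 over 15 pairs. The points share libraries, depth and the pair of high DPB2oe12.1.5 libraries, so these are descriptions. The 8 genes outside the group with the most similar pattern over 12 libraries were ATL5 (r = 0.93), P40 (0.92), AT4G19380 (0.90), AT4G13170 (0.89), LOS1 (0.89), AT3G57400 (0.89), NDB2 (0.88) and NAP1;3 (0.88). Their ranges were narrower: LOS1 ran from 1119 to 1914 CPM and ATL5 from 6.74 to 12.1.

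Clock genes moved with the seed genes in part. LHY, a clock transcription factor that peaks at dawn, reached 202 and 196 CPM for DPB2oe12.1.5 replicates 1 and 2, 217 in DPB2oe1.11.5 replicate 2 and 173 in abo4-1 replicate 2, and at 3.97 to 48.1 in the other 8 libraries. PRR5, a clock gene of the later day, was at 0.279 to 2.87 CPM in those 4 libraries and at 4.13 to 51.8 in the others. The 3 highest seed gene sums of the series came from these 4 libraries. The remaining one, abo4-1 replicate 2, had 2.58 CPM of seed genes, below abo4-1 replicate 1 with 5.998 CPM and an LHY level of 26.5. Over the 12 libraries, the log2 CPM of the 6 tested members correlated with that of LHY at r of 0.32 (OLEO2) to 0.77 (CRA1). The median over all tested genes was -0.01. The 6 passed the filter mostly through DPB2oe12.1.5, so this is a description. With the LHY level as a covariate, EM6 was at 2.41 in DPB2oe12.1.5 against Col-0 (adjusted p = 0.0497) and PAP85 at 2.80 (adjusted p = 0.102, edgeR). No Col-0 library was among the 4 of highest LHY, which limits this fit. Hours of harvest are not in the labels, and the part of the time of day in these results was not tested beyond these values.

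**Figure D4:**
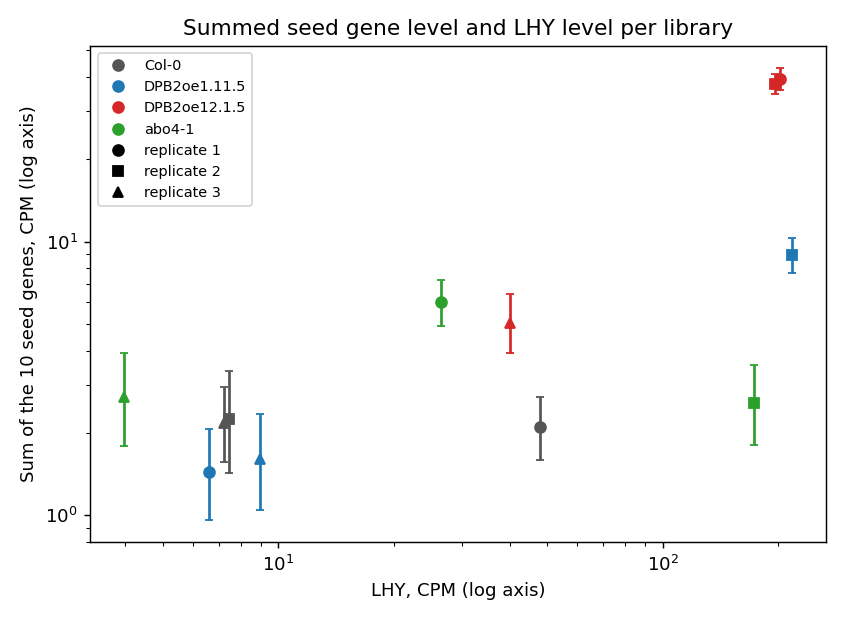
Summed level of the 10 seed genes (y axis, CPM, log axis) against the LHY level (x axis, CPM, log axis) in the 12 libraries; bars are 95% Poisson intervals of the counts. DPB2oe12.1.5 replicates 1 and 2 lie at the upper right (39.3 and 37.5 CPM), and abo4-1 replicate 2 lies low (2.58 CPM) at an LHY level of 173.

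Other seed genes were set beside the members. Of 13 other storage and oil body genes, 7 passed the filter and none was called against Col-0 in any genotype (edgeR), with medians of 0.14, 0.50 and 1.30 on the log2 scale for DPB2oe1.11.5, DPB2oe12.1.5 and abo4-1. At an unadjusted p under 0.05 there were 0, 1 and 2 higher of 7, where 6.14%, 8.02% and 4.65% of all genes were. SESA2, with 3 counts over the Col-0 libraries, passed the filter through other groups, so these are not read against those shares. The albumin genes SESA2, SESA4 and SESA5, named after their values were seen, followed SESA3: together they had 118 and 179 counts in DPB2oe12.1.5 replicates 1 and 2, 5 in replicate 3 and at most 24 in any other library. The vicilin-like gene AT4G36700, chosen in the same way, did not: it had 3 and 6 counts in these libraries, 119 in DPB2oe1.11.5 replicate 2 and 55 in abo4-1 replicate 2.

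Of 20 other LEA and desiccation genes, 15 passed the filter and none was called against Col-0 in any genotype (edgeR). At an unadjusted p under 0.05, 9 were higher in DPB2oe12.1.5 (background 8.02% of all genes) and 9 in abo4-1 (background 4.65%). Their medians were 1.43 and 1.49 on the log2 scale, with 13 and 14 of 15 above 0 (9942 and 9994 of all 19924 genes). AT2G21490 and AT4G21020, with 9 counts each over the Col-0 libraries, passed the filter through other groups. The counts of this list are therefore not read against those shares. In DPB2oe1.11.5 the median was 0.22, none was higher at that p, and RAB18 was lower. The dehydrin AT2G21490 was at 3.37 ± 0.82 in DPB2oe12.1.5 (adjusted p = 0.0877, edgeR) and 2.78 ± 0.84 in abo4-1 (adjusted p = 0.237). LEA4-2 was at 2.47 ± 0.52 (adjusted p = 0.0627) and 1.99 ± 0.52 (adjusted p = 0.138). Without RAB18, the sum of the list was 14.4 to 21.6 CPM in Col-0, 36.5 to 45.3 in DPB2oe12.1.5 and 24.5 to 59.9 in abo4-1. On this sum DPB2oe12.1.5 replicate 3 did not stand apart from replicates 1 and 2, but single genes differed. LEA4-5 was at 6.10, 5.70 and 0.935 CPM in replicates 1, 2 and 3 of that line. AT2G21490 was at 2.97, 1.97 and 0.312, with up to 0.318 in Col-0. LEA4-2 (2.97, 3.46 and 6.78) and LEA4-1 (2.09, 3.26 and 4.99) were instead highest in replicate 3.

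**Figure D5:**
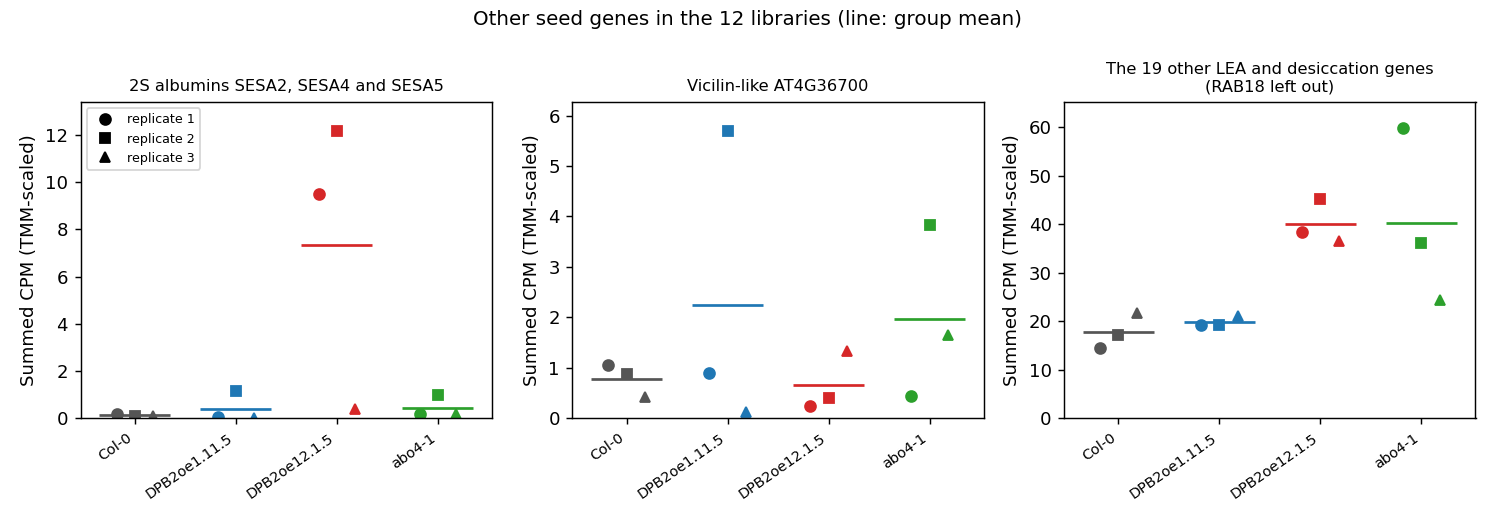
Summed levels (y axes, CPM after TMM scaling) of 3 albumin genes, of the vicilin-like gene AT4G36700 and of 19 LEA and desiccation genes in the 3 libraries of each genotype (x axis), with group means as lines; the sets were chosen after their values were seen. The albumins are high in DPB2oe12.1.5 replicates 1 and 2, AT4G36700 in DPB2oe1.11.5 replicate 2 and abo4-1 replicate 2, and the LEA sums lie above those of Col-0 in all libraries of DPB2oe12.1.5 and abo4-1.

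Of the transcription factors that switch the members on in the embryo, LEC1, LEC2, FUS3 and ABI3 were low in all libraries. LEC1 had 0 to 2 counts, LEC2 0 to 5 and FUS3 0 to 6, and ABI3 had 4 to 20 counts, or 0.192 to 1.11 CPM. In DPB2oe12.1.5 replicates 1 and 2, where the members were highest, LEC1 had 0 counts in both, LEC2 3 and 1, and FUS3 1 and 1. LEC2 was thus at 0.241 CPM in replicate 1, above its Col-0 maximum of 0.212. ABI3 was at 0.402 and 0.543 CPM, within or below its Col-0 range of 0.471 to 0.684, while replicate 3 had 0.935 CPM. Such low counts do not show whether these factors differed. The bZIP factors bZIP10 and bZIP25 were well detected, with 23.8 to 29.8 and 38.4 to 60.7 CPM over the 12 libraries. Of 15 activators, 6 passed the filter and none was called against Col-0 (edgeR), with medians between 0.01 and 0.19. At an unadjusted p under 0.05, WRI1 and AGL15 were higher in DPB2oe12.1.5 (8.02% of all genes) and AGL15 in abo4-1 (4.65%). The gene bZIP53 was listed at 0 in all 12 libraries.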

How the data were processed

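Messenger RNA of seedlings was sequenced single-end and stranded on an Ion Torrent Proton, per the labels. Each deposited file holds raw counts of reads per locus, made with sam2pkm after removal of reads with several equal hits, per the file headers, on TAIR10, per the submitters' processing notes; the sources used here give neither the aligner nor whether counting used the strand. Counted reads per library were 10902547 to 29456111. Positions and promoters are from RefSeq TAIR10.1, which matched 97.7% of loci.

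All 12 libraries entered 1 edgeR 4.0.16 quasi-likelihood fit in R 4.3.3 (filterByExpr by group, minimum count 10; TMM; 19924 genes). P values were adjusted by Benjamini-Hochberg over the whole table, with calls under 0.05. CPM are TMM-scaled. The fit was tested on simulated data. Members and gene lists were chosen with earlier results of these data known. All members, the targeted genes, LHY and PRR5, genes of other lists called against Col-0 and the 8 most similar genes were named by rule; other genes named were chosen after their values were seen. Alternatives were RLE and upper-quartile scaling, DESeq2 1.42.0, no filter, the 6 libraries of a comparison, a replicate block and leaving out each library; 2 concerning LHY were chosen after seeing the data. Same-numbered libraries of DPB2oe1.11.5 and abo4-1 deviated together (r = 0.137, 0.552 and 0.348), with no shared batch in the labels.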

Additional observations from a re-analysis of the deposited data

Results flagged for a closer look

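A pair of seed genes differed between genotypes by a direct test. EM6 was higher in DPB2oe12.1.5 than in DPB2oe1.11.5, both labelled as DPB2 overexpressors, by 2.996 on the log2 scale (adjusted p = 0.0114, edgeR, 3 of 3 libraries higher). PAP85 was higher in DPB2oe12.1.5 than in abo4-1 by 2.86 (adjusted p = 0.0448, edgeR, 3 of 3 libraries higher). Neither was called with the 6 libraries of its comparison alone (adjusted p = 0.131 for EM6 and 0.115 for PAP85, edgeR). Both calls also ended without DPB2oe12.1.5 replicate 1 (0.0568 and 0.123). PAP85 between the lines (adjusted p = 0.0818, edgeR) and EM6 against abo4-1 (0.0515) were not called.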

How the results depend on the processing

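No member was called in DPB2oe1.11.5 or abo4-1 against Col-0, or between DPB2oe1.11.5 and abo4-1, under any alternative run. In DPB2oe12.1.5 against Col-0, where 2 were called, 0 were called without the 4 libraries of highest LHY and 1 with LHY as a covariate, and 3 were called without a filter; leaving out single libraries gave 0 to 6. Against DPB2oe1.11.5, where 1 was called, DESeq2 called 2, no filter 3, the 6 libraries alone 0 and the fit without the 4 libraries 0, with 0 to 4 for single libraries. Against abo4-1, where 1 was called, RLE scaling called 2, DESeq2 2, no filter 3, the 6 libraries alone 0, the fit without the 4 libraries 0 and the LHY covariate 0, with 0 to 4 for single libraries. The cause was not tested, and fits on fewer libraries have less data. With a single library left out the filter asked for 2 libraries, so members that had failed the main filter could be called.

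Genes called over the whole table moved more. Taking the comparisons in the order DPB2oe1.11.5, DPB2oe12.1.5 and abo4-1 against Col-0, DPB2oe12.1.5 against DPB2oe1.11.5 and against abo4-1, and DPB2oe1.11.5 against abo4-1, they were 141, 85, 156, 6, 142 and 327. DESeq2 called 645, 708, 308, 670, 646 and 923. No filter gave 215, 180, 115 and 222 in all but the third and the sixth. The 6 libraries alone gave 221, 99, 1, 43 and 103 in all but the second. Without the 4 libraries of highest LHY they were 925, 47, 1042, 74 and 1065 in all but the third, and the LHY covariate gave 562, 150 and 970 in the first, the fourth and the sixth. Single libraries left out gave 21 to 286, 15 to 95, 65 to 94, 3 to 1119, 49 to 207 and 79 to 577.

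With the replicate block the members called were the same in all 6 comparisons, while genes called were 184, 152, 139, 17, 187 and 422. Same-numbered libraries correlated above 0.1 in all 3 pairs for DPB2oe1.11.5 and abo4-1 alone, where 5 of 6 libraries correlated best with their own number; the lowest and highest in the other comparisons were -0.22 and 0.37, with at most 4 of 6.

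Signs turned for members that were not called. DPB2oe1.11.5 against Col-0 gave 0.02 for OLEO1 by DESeq2 and with no filter, and -1.55 for CRA1 without the 4 libraries, where DPB2oe12.1.5 against Col-0 gave -0.11 for CRA1, -1.22 for OLEO1 and -0.38 for OLEO2. CRU3 in abo4-1 against Col-0 was -0.01 with the block and -0.57 with the LHY covariate. Without the 4 libraries, OLEO2 was -0.21 between DPB2oe12.1.5 and DPB2oe1.11.5, and CRA1, OLEO1 and OLEO2 were -1.88, -2.64 and -1.23 between DPB2oe12.1.5 and abo4-1. Between DPB2oe1.11.5 and abo4-1, PAP85 was -0.53 and CRA1 -3.32 without them, and CRA1 -0.64 with the covariate. Leaving out single libraries moved CRA1 from -1.55 to 3.06, OLEO1 from -1.64 to 0.59 and OLEO2 from -0.91 to 0.06 in DPB2oe1.11.5 against Col-0, and CRA1 from -0.25 to 2.62, CRU3 from -1.14 to 1.53 and OLEO1 from -0.61 to 1.42 in abo4-1 against Col-0. Between DPB2oe1.11.5 and abo4-1 it moved CRA1 from -2.90 to 2.04, OLEO1 from -2.58 to 0.61 and PAP85 from -0.31 to 0.70. Depth limits all members: the highest count of any in a library was 115.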

Other observations

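Genes that hold the seed programme silent in seedlings were measured well and differed little. All 14 repressors tested, among them VAL1, VAL2, PKL and the Polycomb group genes CLF and SWN, failed to be called against Col-0 in every genotype (edgeR), with log2 differences between -0.29 and 0.46. At an unadjusted p under 0.05, 1 was higher in DPB2oe1.11.5 (6.14% of all genes) and 1 was lower in DPB2oe12.1.5 (1723 of 19924 genes). None differed in abo4-1, where 926 of all genes were higher and 692 lower. The 6 genes of oil mobilisation after germination, such as ICL and MLS of the glyoxylate cycle, were likewise not called, and none reached an unadjusted p under 0.05 against Col-0. Their summed levels were 660 to 733 CPM in Col-0 and 507 to 657 in DPB2oe12.1.5, so the groups do not overlap on this sum. Most of it came from KAT2 (means 310.9 and 242.2 CPM) and PCK1 (254.7 and 208.7). ICL and MLS had higher means in DPB2oe12.1.5 than in Col-0 (27.87 against 18.25 and 8.273 against 4.645 CPM). Of the 6 log2 differences 3 were above 0, with a median of -0.08.

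Of 10 markers of the ABA response, 9 were tested and none was called against Col-0. Their median log2 difference was -0.28 for DPB2oe1.11.5, -0.40 for DPB2oe12.1.5 and 0.01 for abo4-1. At an unadjusted p under 0.05, 1 was lower in the first, where 8.79% of all genes were. In the second 3 were lower (HAI2, ABI1 and KIN1), where 1723 of 19924 genes were. In the last 1 was higher, where 4.65% of all genes were. HAI1 was lower in DPB2oe1.11.5 than in abo4-1 (log2 -1.18 ± 0.26, adjusted p = 0.041, edgeR). Among root markers EXPA7, an expansin of root hair cells, fell by 1.94 on the log2 scale in DPB2oe1.11.5 (adjusted p = 0.0409), and GL2, a regulator of epidermal cell fate, fell by 2.16 in abo4-1 (adjusted p = 7.4e-05, edgeR). Of 6 root markers tested, 5 were lower in DPB2oe1.11.5 at an unadjusted p under 0.05 (8.79% of all genes). Each of the 5 had its 3 libraries below those of Col-0, as did 2384 of the 19924 genes tested. Summed root markers were at 42.7 to 48.5 CPM for Col-0, 25.7 to 29.4 for DPB2oe1.11.5, 40.6 to 63.4 for DPB2oe12.1.5 and 23.9 to 32.0 for abo4-1. The lower sum of abo4-1 came mostly from GL2, with a mean of 4.16 CPM against 18.31 in Col-0. The median log2 difference of the 6 was -0.19 in abo4-1 and -0.71 in DPB2oe1.11.5. In abo4-1, 1 of the 6 was lower at an unadjusted p under 0.05 (692 of 19924 genes). All 6 tested root markers were higher in every library of DPB2oe12.1.5 than of DPB2oe1.11.5, as were 2198 of the 19924 genes tested. EM6 was called in this comparison, and the part of the root markers in that result was not tested.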
